A study of Mus musculus with 6 samples.

Results

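Neurons extend and stabilise their processes with a distinctive cytoskeleton (growth cone protein, stathmins, neurofilaments, microtubule-associated proteins), signal through synaptic vesicles, and pack peptides into dense-core granules with the granins. Sympathetic neurons, adrenal chromaffin cells and peripheral glia arise from the neural crest, a migratory embryonic population marked by the transcription factors Sox10 and Foxd3. The gonad receives nerve fibres and glia from outside, and several of these genes are also used by mesenchyme, muscle, Sertoli cells and germ cells.

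A list of 38 such genes was examined, chosen by gene symbol and not by a threshold on the measured values. Earlier results of these data were known when the genes were chosen, so counts and medians over the list are descriptive only. The list held 15 genes of the neuronal cytoskeleton, 3 of neuronal RNA binding and protein turnover and 3 of neural adhesion. It also held 3 of the synaptic vesicle machinery and 5 of the granin pathway. A further 4 were sympathoadrenal, and 5 belonged to the neural crest and glia. Of these, 37 had a probe, out of 19084 genes with 1, and they were covered by 42 of 26423 probes. Ina, a neuronal intermediate filament gene, was not analysed here. A total of 33 passed the filter on low values and were tested, among 15459 genes. Cntn1, Scg3, Foxd3 and Fabp7 lay under the filter level of 7.82 (normalized log2 intensity) on all 6 arrays, so they are given by level only.

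Each of 6 single-colour (Cy5) microarrays measured total RNA of ICR mouse cells, with 2 arrays in each of 3 groups. GSC colonies were picked from cultures of neonatal testicular cells (labelled P2, drawn from 80 mice) after 7 days in 5% O2, on laminin at 200 ng/cm2 with epidermal growth factor at 10 ng/mL. PGC colonies came from gonadal cells of 67 embryos at E11.5 under that same culture. CD49f+ sorted cells were taken by magnetic beads from the testes of 100 mice of the neonatal stage and were never cultured; their labels give physiological hypoxia with no oxygen value. The labels call GSC glandular stem cells and PGC primordial germ cells, and animals were pooled in every group. Germ cell markers did not set PGC colonies apart as their label would have it. Of 8 tested, 0 were called higher there than in sorted cells and 3 lower, beside 22.8% and 23.2% of all tested genes. Against GSC colonies 0 were higher and 4 lower, beside 7.08% and 7.98%. The mean level of the 12 listed was 8.26 to 8.30 in PGC colonies, 9.29 to 9.38 in GSC colonies and 8.59 to 8.61 in sorted cells. The germ cell helicase Ddx4 was at 9.72 to 10.27 on the 6 arrays and differed in no comparison, while Sycp3, Dppa3 and Sall4 lay under the filter level throughout. Dazl, a germ cell RNA-binding gene, was under that level on both PGC colony arrays. In such bulk RNA, fewer cells of a type and less RNA per cell cannot be told apart. Whether the pair of arrays in a group stands for separate cell preparations is not in the labels, so each p-value is measured against a spread that may be technical only.

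The tested genes were more often called higher than lower in PGC colonies. Against GSC colonies, 18 of the 33 tested genes were higher and 1, Map2, was lower, where 7.08% of all tested genes were called higher and 7.98% lower, 15.1% in all (limma, adjusted p under 0.05). Against sorted cells, 20 were higher and 3 lower, beside 22.8% and 23.2% of all tested genes, or 46% in either direction. Between GSC colonies and sorted cells the counts were 13 higher and 6 lower, beside a background of 22.5% and 24.5%, or 47.1% in either direction, so those 19 calls among 33 are near the background. Without normalization between arrays that last split became 19 higher and 4 lower, and that of all genes 52.9% and 11.2%, since the median gene then shifted by 0.465. Nefl reached the filter level only on PGC colony arrays and so had to differ once tested; without it the higher counts were 17, 19 and 12, in the order above. Over all 37 genes with a probe, whatever their level, the median log2 difference was 0.59 for PGC against GSC colonies, 0.92 for PGC colonies against sorted cells and 0.13 for GSC colonies against sorted cells. The medians over all 19084 genes were 0, -0.02 and 0. The 3 comparisons share arrays and are not independent of each other.

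**Figure D1:**
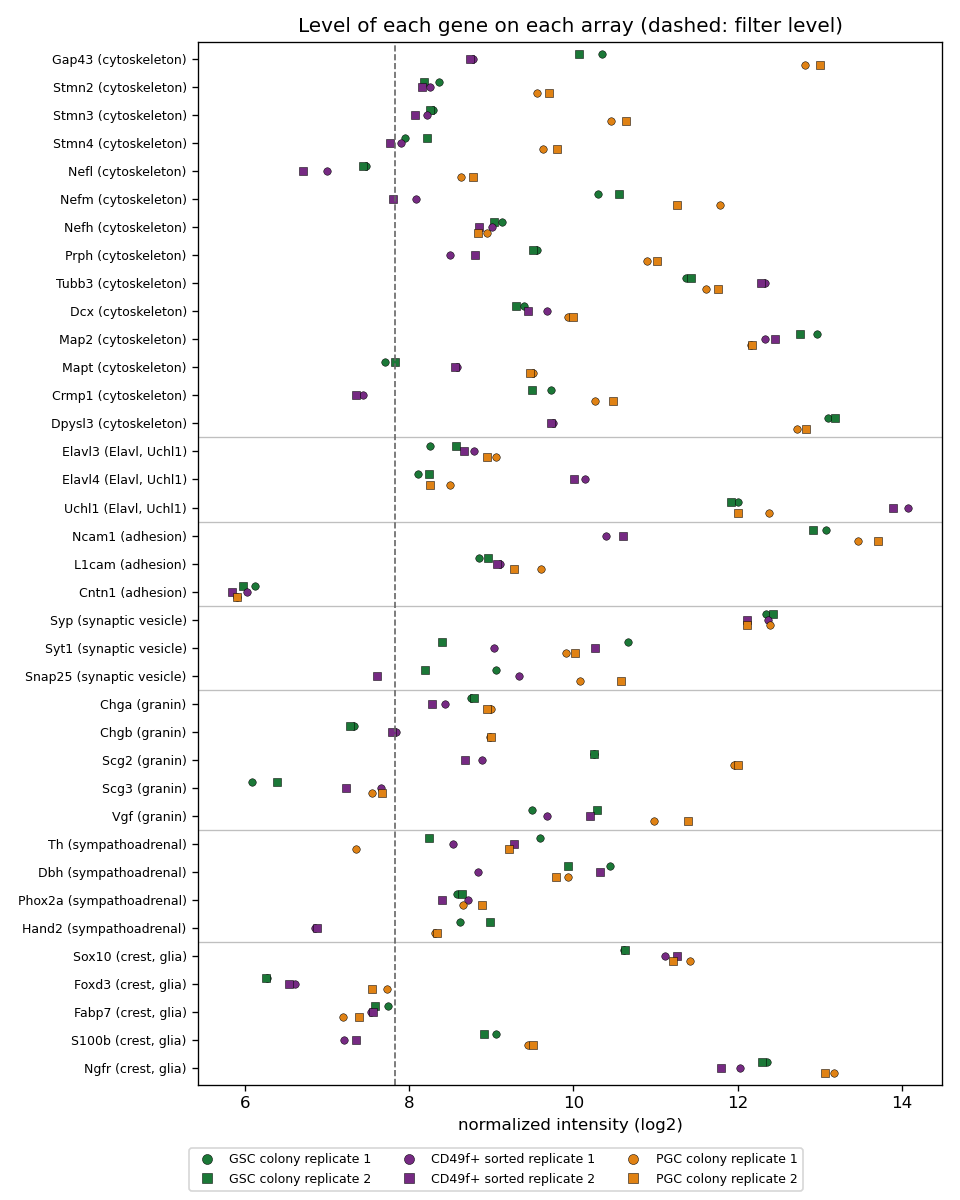
Normalized log2 intensity (x axis) of the 37 genes with a probe, 1 row a gene, with a circle for replicate 1 and a square for replicate 2 of each group; the dashed line is the filter level of 7.82. The PGC colony points of Gap43, Stmn2, Stmn3, Stmn4, Scg2 and Prph lie to the right of all other points of those rows, while those of sorted cells lead for Uchl1, Elavl4 and Tubb3.

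The 33 tested genes fell into a few orders of the 3 groups. In 9 genes PGC colonies were called above GSC colonies and these above sorted cells: Gap43, Nefl, Nefm, Prph, Crmp1, Ncam1, Scg2, S100b and Ngfr. For Ncam1 and S100b the call between the colonies was lost under many of the alternatives given below. For Nefl this order is a description only, since the filter fixed its PGC colony calls and its other 4 arrays lay under the filter level. In 7, PGC colonies were above both other groups without GSC colonies being above sorted cells: Stmn2, Stmn3, Stmn4, Dcx, Mapt, Chgb and Vgf. Dcx holds this order on its brighter probe only, since its other probe did not show it. Both kinds of colony were above sorted cells, with no call between them, for Dpysl3, Chga and Hand2. Sorted cells were above both kinds of colony for Tubb3, Elavl4 and Uchl1. No comparison was called for Nefh, L1cam, Syp, Syt1, Th, Dbh and Phox2a, and Map2, Elavl3, Snap25 and Sox10 followed other orders.

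Gap43, which encodes the growth cone protein of extending axons, differed most among the cytoskeletal genes between PGC colonies and sorted cells. Its level was 12.82 and 13.00 on the PGC colony arrays, 10.35 and 10.07 on the GSC colony arrays, and 8.77 and 8.74 on the sorted arrays. In deposited intensity, before any normalization, this was 7860 and 9230, 1440 and 1180, and 295 and 299. The groups did not overlap. PGC colonies were 17.8-fold above sorted cells (4.15 ± 0.14 log2, SE; limma adjusted p = 5.9e-06) and 6.48-fold above GSC colonies (2.70 ± 0.14; adjusted p = 0.00012). GSC colonies were in turn 2.74-fold above sorted cells (1.46 ± 0.14; adjusted p = 0.00026).

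The 3 neuronal stathmins, which bind tubulin dimers and promote microtubule turnover in growing neurites, were all higher in PGC colonies and did not separate the other groups. Stmn3 was at 10.46 and 10.64 in PGC colonies, 8.29 and 8.25 in GSC colonies and 8.21 and 8.07 in sorted cells. Stmn2 was at 9.56 and 9.70, 8.36 and 8.18, and 8.25 and 8.15 in the same order. Stmn4 was at 9.63 and 9.80, 7.95 and 8.22, and 7.90 and 7.76, with 1 sorted array under the filter level. On each of these probes both PGC colony arrays lay above the other 4, and GSC colony and sorted values overlapped for Stmn2. Over GSC colonies Stmn3 was 4.86-fold higher (2.28 ± 0.12; adjusted p = 0.00013), Stmn4 3.09-fold (1.63 ± 0.14; adjusted p = 0.00085) and Stmn2 2.56-fold (1.36 ± 0.12; adjusted p = 0.00098). GSC colonies and sorted cells differed by 0.13, 0.26 and 0.07 log2 for these genes, with SEs of 0.12 to 0.14, and none passed (adjusted p = 0.41, 0.18 and 0.66).

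Intermediate filament genes divided by subunit. Nefm, the medium neurofilament chain, was at 11.78 and 11.26 in PGC colonies, 10.30 and 10.56 in GSC colonies, and 8.08 and 7.80 in sorted cells, where 1 array lay under the filter level. It was 11.9-fold above sorted cells in PGC colonies (3.58 ± 0.21; adjusted p = 3.7e-05) and 5.61-fold in GSC colonies (2.49 ± 0.21; adjusted p = 0.00015), so both kinds of colony stood apart from uncultured cells. The step between the colonies was smaller, at 1.09 ± 0.21 (adjusted p = 0.018), and its call was lost without PGC colony replicate 1, where the difference was 0.83. Prph, the filament of peripheral neurons, was at 10.89 and 11.02, 9.56 and 9.51, and 8.49 and 8.80 in the same order. It was 2.67-fold higher in PGC than in GSC colonies (1.41 ± 0.14; adjusted p = 0.0015). Nefl, the light chain, measured 8.63 and 8.77 in PGC colonies and lay under the filter level on the other 4 arrays, at 6.70 to 7.47, which makes it at least 1.84-fold higher there, with no weight on the test because the filter fixed that call. GSC colonies were also called above sorted cells for Nefl (adjusted p = 0.012), with all 4 arrays under the filter level and hence no fold; the call was lost without sorted replicate 2 and with median centring. Nefh, the heavy chain of mature axons, stayed within 8.83 to 9.13 on the 6 arrays and was not called in any comparison.

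Microtubule proteins did not move as one. Mapt, which encodes tau, was at 9.51 and 9.47 in PGC colonies, 8.58 and 8.55 in sorted cells, and 7.70 and 7.83 in GSC colonies, where 1 array lay under the filter level. The groups did not overlap, and PGC colonies were 3.30-fold above GSC colonies (1.72 ± 0.11; adjusted p = 0.00024). GSC colonies fell by 0.80 ± 0.11 from sorted cells (adjusted p = 0.0012). Map2, a dendritic partner of tau that other cells also make, had its highest values in GSC colonies, at 12.97 and 12.76, against 12.33 and 12.46 in sorted cells and 12.16 and 12.18 in PGC colonies. It rose by 0.47 ± 0.12 in GSC colonies over sorted cells (adjusted p = 0.02), a call lost without GSC colony replicate 1 or either sorted array, at 0.36 to 0.57. It fell by 0.69 ± 0.12 from GSC to PGC colonies (adjusted p = 0.014), and by 0.58 to 0.79 when 1 array was left out, with the call lost without GSC colony replicate 1 or either PGC colony replicate. Tubb3, the neuron-enriched beta-tubulin, was highest in sorted cells, at 12.34 and 12.29, against 11.37 and 11.43 in GSC colonies and 11.62 and 11.76 in PGC colonies. It fell by 0.92 ± 0.11 in GSC colonies (adjusted p = 0.00075) and by 0.62 ± 0.11 in PGC colonies (adjusted p = 0.0042), the latter call being lost without normalization between arrays. Dcx, the microtubule protein of migrating young neurons, was at 9.93 and 10.00 in PGC colonies and 9.30 to 9.68 on the other arrays. Its rise of 0.61 ± 0.12 over GSC colonies (adjusted p = 0.023) was lost without either array of either colony group, where it was 0.55 to 0.66, and its other probe gave 0.36 ± 0.21 (adjusted p = 0.37 over all probes). Over sorted cells Dcx rose by 0.40 ± 0.12 (limma adjusted p = 0.04), a call lost without any 1 array, at 0.29 to 0.52. That call was also lost with the mean of its probes, with the replicate block and with only the groups compared. Its other probe gave -0.04 ± 0.21 there (limma adjusted p = 0.92 over all probes).

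Crmp1 and Dpysl3, collapsin response mediators that relay guidance cues to the cytoskeleton, were high in both kinds of colony. Dpysl3 was at 13.10 and 13.19 in GSC colonies, 12.73 and 12.83 in PGC colonies and 9.75 and 9.73 in sorted cells. It was 10.6-fold above sorted cells in GSC colonies (3.40 ± 0.11; adjusted p = 3.7e-06) and 8.23-fold in PGC colonies (3.04 ± 0.11; adjusted p = 6.7e-06), and its other probe gave 2.37 and 2.13. Crmp1 was at 9.73 and 9.50 in GSC colonies and 10.26 and 10.48 in PGC colonies, and lay under the filter level on both sorted arrays, at 7.44 and 7.35. It was therefore at least 3.46-fold and at least 5.85-fold higher than in sorted cells on that probe (adjusted p = 4.2e-05 and 1.6e-05). On its other probe Crmp1 rose by less, 0.78 ± 0.11 and 1.03 ± 0.11 log2 (limma adjusted p = 0.0024 and 0.00072 over all probes). Its rise of 0.76 ± 0.14 from GSC to PGC colonies (adjusted p = 0.015) was lost without GSC colony replicate 2 or PGC colony replicate 2, where all fits with 1 array left out gave 0.64 to 0.87, and its other probe did not show it (0.25 ± 0.11; adjusted p = 0.25 over all probes).

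**Figure D2:**
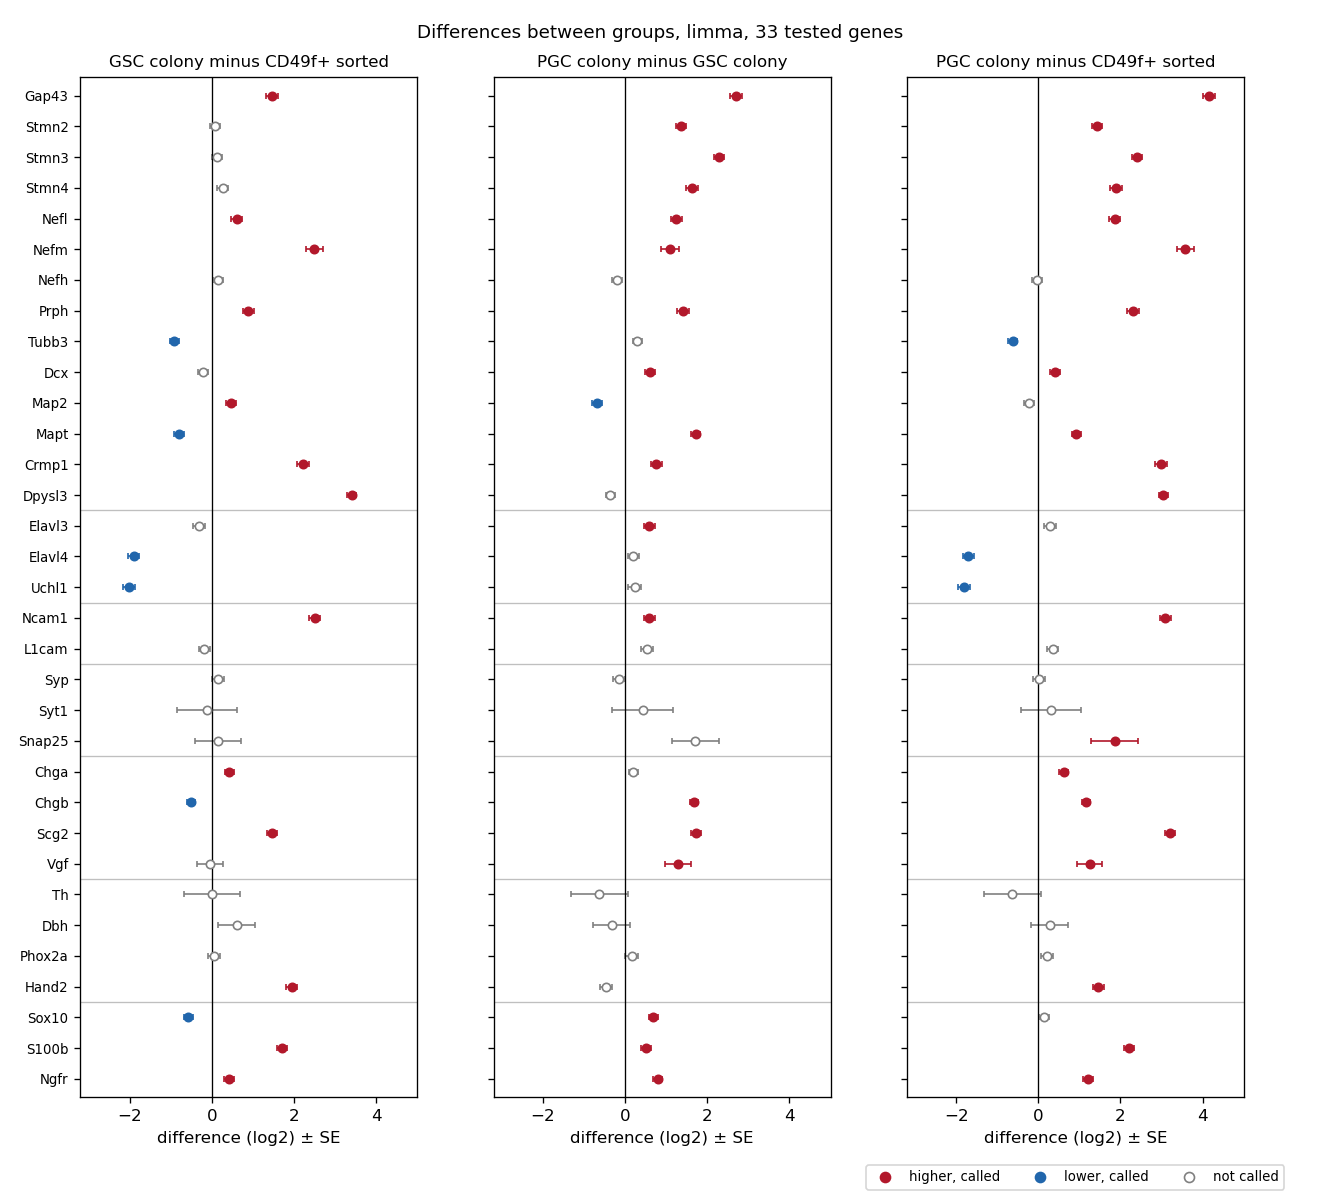
Log2 differences with SE (x axis) of the 33 tested genes in the 3 comparisons, n = 2 arrays a group, filled red where called higher, filled blue where called lower and open where not called at an adjusted p under 0.05. Most cytoskeletal and granin genes lie right of 0 in PGC colonies, from 0.40 for Dcx to 4.15 for Gap43 against sorted cells, whereas Uchl1 and Elavl4 lie left of 0 in both comparisons with sorted cells.

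Of the 3 neuronal RNA-binding and turnover genes, Uchl1 and Elavl4 were highest in sorted cells. Uchl1, a ubiquitin hydrolase abundant in neurons and also in spermatogonia, was at 14.08 and 13.90 in sorted cells, 12.01 and 11.92 in GSC colonies and 12.38 and 12.01 in PGC colonies. It fell by 2.02 ± 0.15 in GSC colonies (adjusted p = 1e-04) and by 1.80 ± 0.15 in PGC colonies (adjusted p = 0.00018). Elavl4, an RNA-binding protein that stabilises neuronal transcripts, was at 10.14 and 10.01 in sorted cells, 8.10 and 8.24 in GSC colonies and 8.50 and 8.25 in PGC colonies. It fell by 1.90 ± 0.13 (adjusted p = 7.1e-05) and by 1.70 ± 0.13 (adjusted p = 0.00012). Each of these genes has 1 probe, on which both kinds of colony thus differed from sorted cells. No difference between the colonies was called, at 0.23 ± 0.15 for Uchl1 and 0.20 ± 0.13 for Elavl4 (limma adjusted p = 0.37 and 0.36). Elavl3, its close relative, spanned only 8.25 to 9.06; a rise of 0.59 ± 0.14 from GSC to PGC colonies (adjusted p = 0.041) was lost without any 1 array other than GSC colony replicate 2, at 0.43 to 0.74, and its other probe gave -0.08.

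Markers of other cells moved beside these patterns. The counts stand beside 22.5% of all tested genes called higher and 24.5% lower in GSC colonies than in sorted cells. The shares were 22.8% and 23.2% for PGC colonies against sorted cells, and 7.08% and 7.98% for PGC against GSC colonies. Of 12 Sertoli cell genes, 10 were lower and 1 higher in GSC colonies than in sorted cells, and 11 were lower in PGC colonies. Without the gene that reached the filter level in 1 group only, 9 and 10 were lower. The mean level of the 12 genes per array was 14.54 to 14.58 in sorted cells, 12.06 to 12.22 in GSC colonies and 12.03 to 12.04 in PGC colonies. Leukocyte genes, 9 tested, were all lower in both kinds of colony than in sorted cells, and 6 were higher and 1 lower in PGC than in GSC colonies; their mean level was 12.98 to 13.03 in sorted cells, 8.69 to 8.87 in GSC colonies and 9.86 to 9.99 in PGC colonies. Endothelial genes were lower than in sorted cells in 7 of 8 cases in GSC colonies, with 1 higher, and in 8 of 8 in PGC colonies. Leydig cell genes were lower in 4 of 6 cases in either kind of colony, and erythroid genes in 3 of 3, or 2 without the gene that reached the filter level in 1 group only. Of 5 smooth muscle genes, 4 were higher in GSC colonies than in sorted cells and 4 lower in PGC than in GSC colonies. Of 8 tested germ cell genes, 5 were higher in GSC colonies than in sorted cells, or 3 without those that reached the filter level in 1 group only; 4 were lower in PGC than in GSC colonies, or 3 without them, and 3 were lower in PGC colonies than in sorted cells. Skeletal muscle genes were higher in PGC than in GSC colonies in 8 of 13 cases, or 7 without such genes, and lower in 1, with a mean level of 9.78 to 9.79 in PGC colonies, 8.47 to 8.71 in GSC colonies and 8.32 to 8.49 in sorted cells. Acta1, the skeletal actin, was at least 9.01-fold higher in PGC than in GSC colonies and reached the filter level in PGC colonies alone, while Myf5 and Mylpf lay under the filter level on all arrays. The part of these cell types in the neuronal results was not tested.

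Among the adhesion molecules, Ncam1, which joins neural and also muscle and mesenchymal cells, was at 13.47 and 13.71 in PGC colonies, 13.08 and 12.92 in GSC colonies, and 10.40 and 10.60 in sorted cells. Both kinds of colony lay well apart from sorted cells, PGC colonies by 8.51-fold (3.09 ± 0.14; adjusted p = 1.6e-05) and GSC colonies by 5.65-fold (2.50 ± 0.14; adjusted p = 3e-05). The difference of 0.59 ± 0.14 between the colonies (adjusted p = 0.039) was lost without any 1 of the 6 arrays, at 0.48 to 0.71, and with the replicate block. L1cam, an adhesion molecule of axons, spanned 8.85 to 9.61 and was not called, with its largest difference at 0.53 ± 0.14 between PGC and GSC colonies (adjusted p = 0.055). Cntn1 was at 5.84 to 6.12, under the filter level throughout. Fibroblast genes changed beside Ncam1 and Dpysl3: 10 of 10 tested were higher in either kind of colony than in sorted cells, with a mean level of 14.09 to 14.13 in GSC colonies, 13.60 to 13.68 in PGC colonies and 10.00 to 10.02 in sorted cells. Of all tested genes, 22.5% were called higher than in sorted cells in GSC colonies and 22.8% in PGC colonies. Between the colonies, 1 of the 10 fibroblast genes was higher in PGC colonies and 6 were lower, beside 7.08% and 7.98% of all tested genes. The part of fibroblast genes in the rise of Ncam1 and Dpysl3 was not tested.

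The granin pathway makes acidic proteins and peptide precursors of dense-core vesicles; of its 4 tested genes, 3 were higher in PGC than in GSC colonies and 4 higher than in sorted cells. Promoters of some are shown here because Scg2 and Chgb, both higher in PGC colonies, hold the same cyclic AMP response element (CRE) as Th, whose levels were too spread for a call. Each line gives the 120 bases before the RefSeq start site (GRCm38.p6), 5′ to 3′ on the gene's strand; capitals mark the CRE letters TGACGTCA in Scg2, Chgb and Th, its first 5 letters TGACG in Chga, and the TATA box letters TATAAA in Prph.
Scg2, chr1:79440027-79440146, minus strand: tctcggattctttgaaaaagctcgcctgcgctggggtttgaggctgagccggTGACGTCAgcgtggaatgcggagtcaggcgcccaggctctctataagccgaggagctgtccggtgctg
Chgb, chr2:132781522-132781641, plus strand: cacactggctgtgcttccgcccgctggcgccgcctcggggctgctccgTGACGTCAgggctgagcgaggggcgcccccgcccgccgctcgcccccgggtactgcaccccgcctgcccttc
Chga, chr12:102554821-102554940, plus strand: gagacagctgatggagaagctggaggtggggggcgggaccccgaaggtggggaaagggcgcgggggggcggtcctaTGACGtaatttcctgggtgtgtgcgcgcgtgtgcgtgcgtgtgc
Th, chr7:142899996-142900115, minus strand: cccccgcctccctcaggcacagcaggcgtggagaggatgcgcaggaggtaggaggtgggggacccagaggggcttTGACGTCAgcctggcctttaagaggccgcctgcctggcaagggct
Prph, chr15:99055054-99055173, plus strand: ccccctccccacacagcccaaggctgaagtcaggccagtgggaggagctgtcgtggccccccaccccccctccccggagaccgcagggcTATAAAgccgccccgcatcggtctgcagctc

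The CRE began 68 bases before the start of Scg2, 72 before that of Chgb and 45 before that of Th. Over 300-base windows, 250 bases before to 50 after a start, TGACGTCA on either strand was in 4 of the 26 listed genes with a window (Chgb, Foxd3, Scg2 and Th), and in 1.79% of all 32851 windows. The first 5 letters alone, TGACG, which every full match also holds, were in 11 of the 26 genes and in 20.8% of windows. TATAAA was in 5 genes and 13.6% of windows, CAGCTG, an E-box, in 7 genes and 16.3%, and TTCAGCACC, the left part of the RE1 element that the repressor REST binds, in Scg2 alone and 0.371%. The 26 genes had 35 windows, so a gene with several starts had more chances of a match than 1 window has. Such matches describe letters and not binding, and the motifs were chosen after the levels were known.

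Scg2, which encodes secretogranin II, was at 11.96 and 12.00 in PGC colonies, 10.25 on both GSC colony arrays and 8.89 and 8.68 in sorted cells. The 3 groups were apart by far more than their spread. PGC colonies were 3.32-fold above GSC colonies (1.73 ± 0.12; adjusted p = 0.00032) and 9.19-fold above sorted cells (3.20 ± 0.12; adjusted p = 7.6e-06), and GSC colonies 2.77-fold above sorted cells (1.47 ± 0.12; adjusted p = 0.00012). Chgb, chromogranin B, was at 8.98 and 8.99 in PGC colonies, 7.84 and 7.79 in sorted cells, around the filter level, and 7.33 and 7.27 in GSC colonies, under it. It was at least 2.24-fold higher in PGC than in GSC colonies (adjusted p = 0.00022) and 2.25-fold above sorted cells (adjusted p = 0.00019). GSC colonies lay 0.51 below sorted cells on the log2 scale (adjusted p = 0.0068), which did not pass when arrays were left unnormalized, nor without GSC colony replicate 2 or sorted replicate 1, where fits with 1 array left out gave -0.54 to -0.48. Vgf, a neurotrophin-induced peptide precursor, was at 10.98 and 11.39 in PGC colonies but spread over 9.49 and 10.29 in GSC colonies and 9.68 and 10.20 in sorted cells. Its rise of 1.29 ± 0.31 over GSC colonies (adjusted p = 0.041) ranged from 0.89 to 1.69 with 1 array left out and kept its call only without GSC colony replicate 2. Over sorted cells it rose by 1.25 ± 0.31 (adjusted p = 0.018), a call lost without sorted replicate 1 or PGC colony replicate 2, at 1.00 to 1.52. Chga, chromogranin A, had a narrow range of 8.28 to 9.00: it rose by 0.62 ± 0.11 in PGC colonies over sorted cells (adjusted p = 0.0043) and by 0.42 ± 0.11 in GSC colonies (adjusted p = 0.021), the latter lost without any 1 array of those groups, at 0.34 to 0.50. Scg3, which sorts granins to the vesicle membrane, lay under the filter level on all arrays, at 6.08 to 7.66.

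The synaptic vesicle genes gave little separation. Syp, the vesicle membrane protein synaptophysin, was at 12.11 to 12.43 on all arrays and was not called in any comparison. Snap25, a fusion protein of the nerve terminal, was at 10.08 and 10.58 in PGC colonies, 9.05 and 8.19 in GSC colonies, and 9.33 and 7.61 in sorted cells. Its rise of 1.86 ± 0.57 in PGC colonies over sorted cells (adjusted p = 0.038) was lost without sorted replicate 2 or either PGC colony replicate, and ranged from 1.01 to 2.74 with 1 array left out; the rise over GSC colonies did not pass (1.71 ± 0.57; adjusted p = 0.10). Syt1, the calcium sensor of vesicle fusion, was at 10.66 on 1 GSC colony array and 8.40 on the other, and at 9.03 and 10.26 on the sorted arrays, which spans the PGC colony values of 9.91 and 10.02.

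Disagreement between the arrays of a group marked a few of these probes. The SD within groups, pooled over the 3 pairs, was 1.05 log2 for Syt1, 0.98 for Th, 0.81 for Snap25, 0.64 for Dbh and 0.43 for Vgf. These 5 lay among the tenth of all tested genes with the widest spread, whose median gene had 0.13. For Syt1, 99.1% of tested genes had a smaller SD. Nefm came next, with an SD of 0.26, and 87.6% of tested genes had a smaller one. For the remaining listed genes that share was at most 69.2%, and the median SD over the 33 tested was 0.134.

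**Figure D3:**
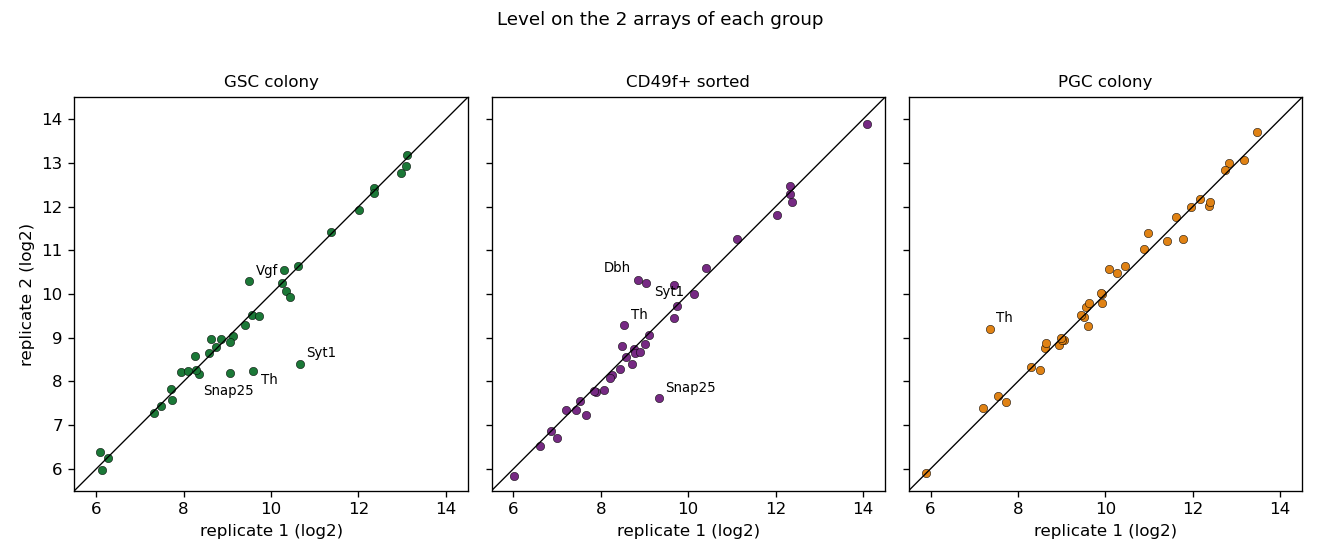
Normalized log2 intensity on replicate 2 (y axis) against replicate 1 (x axis) for the 37 genes with a probe, 1 panel a group, with the line of equality and with names where the arrays differ by 0.7 or more. Syt1, Th and Snap25 lie off the line in GSC colonies and in sorted cells, Vgf in GSC colonies, Dbh in sorted cells and Th in PGC colonies, while most genes sit on it.

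Of the 4 sympathoadrenal genes, Hand2 alone was called in any comparison. Th, the rate-limiting enzyme of catecholamine synthesis, was at 9.59 and 8.24 in GSC colonies, 8.53 and 9.28 in sorted cells, and 7.35 and 9.21 in PGC colonies, with all groups overlapping (adjusted p = 0.51 to 1). Dbh, which makes noradrenaline, was at 9.79 to 10.44 in both kinds of colony and 8.84 and 10.32 in sorted cells, and was not called (adjusted p = 0.33 to 0.69). Phox2a, a homeobox gene that specifies noradrenergic neurons, stayed within 8.40 to 8.89 and was not called (adjusted p = 0.30 to 0.80). The SE of a difference was 0.69 for Th and 0.45 for Dbh, so these probes were imprecise, whereas Phox2a differed by 0.05 to 0.21 with an SE of 0.15. Hand2, a transcription factor of sympathetic neurons that also acts in limb and heart mesenchyme, had little spread between arrays. It was at 8.62 and 8.98 in GSC colonies and 8.31 and 8.34 in PGC colonies, and under the filter level in sorted cells at 6.85 and 6.87, so it was at least 1.97-fold and at least 1.42-fold higher in the colonies (adjusted p = 9.1e-05 and 0.00031).

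Of the 3 tested neural crest and glial genes, S100b and Ngfr were higher in both kinds of colony than in sorted cells. S100b, a calcium-binding protein of Schwann cells, was at 9.45 and 9.51 in PGC colonies and 9.05 and 8.91 in GSC colonies, and under the filter level in sorted cells at 7.20 and 7.35. It was at least 3.15-fold and at least 2.23-fold higher in the colonies than in sorted cells (adjusted p = 2.7e-05 and 6.3e-05). The call on its step of 0.50 ± 0.12 between the colonies (limma adjusted p = 0.036) was lost without any 1 array, at 0.42 to 0.57. It was also lost with the replicate block and with only the groups compared. Ngfr, a neurotrophin receptor of crest cells that mesenchyme also carries, was at 13.18 and 13.07 in PGC colonies, 12.36 and 12.30 in GSC colonies and 12.03 and 11.80 in sorted cells. It was 2.31-fold above sorted cells in PGC colonies (1.21 ± 0.12; adjusted p = 4e-04) and 1.73-fold above GSC colonies (0.79 ± 0.12; adjusted p = 0.009). Against sorted cells the rise of GSC colonies was 0.42 ± 0.12 (adjusted p = 0.034), lost without either GSC colony array or sorted replicate 2, at 0.30 to 0.54.

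Sox10, the defining factor of crest and Schwann cells, differed by less than 1 log2 in every comparison. It was at 11.42 and 11.21 in PGC colonies, 11.11 and 11.26 in sorted cells and 10.62 and 10.63 in GSC colonies. The GSC colonies were lower than sorted cells by 0.57 (SE 0.12; adjusted p = 0.01), a difference of -0.03 without normalization between arrays, and the call was also lost without sorted replicate 2, where fits with 1 array left out gave -0.65 to -0.49. PGC colonies rose by 0.69 ± 0.12 over GSC colonies (adjusted p = 0.015), a call lost without GSC colony replicate 1, at 0.58 to 0.79. On its other probe neither passed (-0.35 and 0.32, SE 0.12; adjusted p = 0.075 and 0.19 over all probes). Foxd3, an early crest factor, was at 7.73 and 7.54 in PGC colonies and 6.25 to 6.61 elsewhere, and Fabp7, a fatty acid carrier of glial precursors, at 7.19 to 7.74, all under the filter level. Of other markers, the nuclear neuronal protein gene Rbfox3 stayed within 8.50 to 8.81 and was not called (adjusted p = 0.24 to 0.72). Erbb3, the neuregulin receptor of Schwann cells, was at 8.33 and 8.03 in PGC colonies, 7.70 and 7.61 in GSC colonies and 8.53 and 8.31 in sorted cells. The colonies did not differ by test (0.52 ± 0.15, limma adjusted p = 0.066). With both GSC colony arrays under the filter level, it was at least 1.51-fold higher in sorted cells than there (adjusted p = 0.0063). Cdh19, another of these markers, was at 8.39 and 8.45 in PGC colonies and under the filter level on all other arrays. It was at least 1.52-fold higher in PGC colonies than in either other group, but the filter fixed that call. Gfap, a glial filament, and Mbp, a myelin protein, were not called in any comparison.

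Related genes outside the list were read the same way. Of 38 other neuronal genes tested, 8 were higher in PGC than in GSC colonies and 2 lower (7.08% and 7.98% of all tested genes), against 7 and 5 with median centring and 7 and 6 without normalization between arrays. Syt4, a vesicle protein, was at least 2.02-fold higher in PGC colonies than in either other group, but it reached the filter level there alone, so its call was fixed by the filter; without it 7 were higher. Nnat, a small membrane protein of young neurons, was at 11.76 and 11.77 in sorted cells, 10.35 and 10.17 in PGC colonies and 8.10 and 8.24 in GSC colonies; it rose by 2.09 ± 0.12 from GSC to PGC colonies (adjusted p = 0.00018). Dpysl4, a relative of Dpysl3, fell by 1.16 ± 0.12 from GSC to PGC colonies (adjusted p = 0.002). Against sorted cells, GSC colonies had 11 of these 38 higher and 10 lower, or 22 and 3 without normalization between arrays, and PGC colonies 14 and 7, or 22 and 4. Read against 22.5% and 24.5% of all tested genes (52.9% and 11.2% without normalization) and against 22.8% and 23.2% (49% and 11.9%), these are no result about the list. Nsg1, an endosomal protein of neurons, was at 9.67 and 9.81 in GSC colonies and 7.61 on both sorted arrays, at least 3.78-fold higher (adjusted p = 0.00012), and fell by 0.90 ± 0.17 from GSC to PGC colonies (adjusted p = 0.017). Elavl2, an Elavl gene that germ cells also use, rose by 2.78 ± 0.15 in GSC colonies and by 2.33 ± 0.15 in PGC colonies (adjusted p = 2.8e-05 and 6.2e-05), opposite to Elavl4. Dpysl5 fell by 2.71 ± 0.36 and 1.61 ± 0.36 (adjusted p = 0.0012 and 0.011).

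Of 15 other sympathoadrenal genes tested, 5 were higher and 3 lower in PGC than in GSC colonies, beside 7.08% and 7.98% of all tested genes. GSC colonies against sorted cells gave 5 and 3, and PGC colonies against sorted cells 7 and 2. Without normalization between arrays those splits were 10 and 2, and 9 and 1. The shares of all tested genes were 22.5% and 24.5%, and 22.8% and 23.2%. Without normalization they were 52.9% and 11.2%, and 49% and 11.9%. The splits against sorted cells are not read as a result about the list. Pnmt, the enzyme that makes adrenaline from noradrenaline, was at 14.33 and 14.30 in sorted cells and fell by 5.36 ± 0.14 in GSC colonies and by 4.33 ± 0.14 in PGC colonies (adjusted p = 2.3e-06 and 5.8e-06). Gata2, a zinc finger factor of sympathetic and blood lineages, was at 11.65 and 11.52 in GSC colonies and 8.38 to 8.58 on the other arrays: it rose by 3.06 ± 0.11 over sorted cells and fell by 3.16 ± 0.11 from GSC to PGC colonies (adjusted p = 6.3e-06 and 3.3e-05). Eya1, a transcriptional cofactor of placodes and muscle, rose by 2.24 ± 0.21 from GSC to PGC colonies (adjusted p = 0.0013), and Gata3, a factor of sympathetic neurons, by 1.23 ± 0.12 (adjusted p = 0.0015). Ntrk3, a neurotrophin receptor, rose by 2.41 ± 0.19 and 2.60 ± 0.19 in GSC and PGC colonies over sorted cells (adjusted p = 0.00011 and 8.7e-05). Npy, a sympathetic cotransmitter, rose by 1.77 ± 0.13 in PGC colonies over sorted cells (adjusted p = 8.6e-05). Ddc, the decarboxylase that makes dopamine, fell by 0.85 ± 0.10 from GSC to PGC colonies (adjusted p = 0.0034); its fall of 0.39 ± 0.10 from sorted cells to PGC colonies (adjusted p = 0.022) became a difference of 0.03 without normalization between arrays.

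Of 26 other neural crest and glial genes, 7 were higher and 3 lower in PGC than in GSC colonies, and 11 and 4 in PGC colonies against sorted cells; without the 3 that reached the filter level in 1 group only, the counts were 5 and 3, and 9 and 3. GSC colonies against sorted cells gave 8 and 5, or 10 and 3 without normalization between arrays and 9 and 7 with median centring. Of all tested genes, 7.08% were higher and 7.98% lower between the colonies, and 22.8% and 23.2% in PGC colonies against sorted cells. For GSC colonies against sorted cells the shares were 22.5% and 24.5%, 52.9% and 11.2% without normalization, and 26% and 20.6% with median centring. The split of GSC colonies against sorted cells is not read as a result about the list. Zic1, a zinc finger factor of the dorsal neural tube and somite, was at 13.06 and 12.98 in PGC colonies and rose by 4.47 ± 0.21 over GSC colonies and by 4.57 ± 0.21 over sorted cells (adjusted p = 9.5e-05 and 1.6e-05). Sox2, a factor of neural progenitors and glia, was at 9.44 and 9.77 in PGC colonies and under the filter level on the other 4 arrays, at least 3.45-fold higher than in either other group; it was tested through those arrays alone, so the filter fixed its call. Twist1, shared by crest and mesenchyme, rose by 4.19 ± 0.13 in GSC and by 4.80 ± 0.13 in PGC colonies over sorted cells (adjusted p = 3.7e-06 and 4e-06). Cryab, a small heat shock protein, rose by 4.57 ± 0.15 in GSC colonies (adjusted p = 4.5e-06) and Mitf, the factor of pigment cells, was 2.97 ± 0.11 higher there than in sorted cells (adjusted p = 5.7e-06), with both lower in PGC than in GSC colonies. Ednrb, the endothelin receptor of crest cells, fell by 1.47 ± 0.12 in PGC colonies from sorted cells (adjusted p = 0.00014). Gfra3, a receptor for the ligand artemin, was under the filter level in GSC colonies, so it was at least 1.30-fold higher in sorted cells and at least 1.54-fold higher in PGC colonies (adjusted p = 0.00038 and 0.00089). Sox9, a factor of crest and also of Sertoli cells, fell by 1.20 ± 0.11 in GSC colonies from sorted cells (adjusted p = 0.00028), and Cnp, a myelin enzyme, by 1.16 ± 0.12 in PGC colonies (adjusted p = 0.00049).

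**Figure D4:**
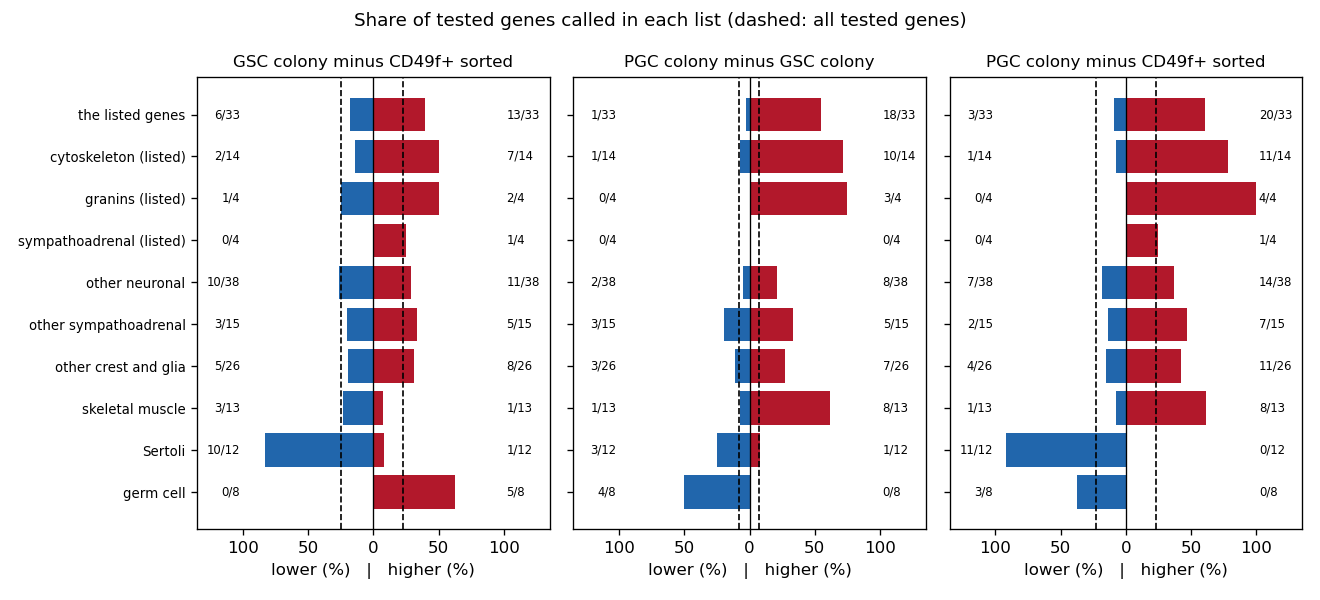
Percent of the tested genes of each list called higher (red, right) or lower (blue, left) in the 3 comparisons, with the counts at the edges and dashed lines at the share of all 15459 tested genes. Between PGC and GSC colonies the bar of the 33 listed genes reaches 18 higher against a background of 7.08%, and that of skeletal muscle genes 8 of 13.

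PGC and GSC colonies differ in stage and tissue together, and both differ from sorted cells in culture and in selection by CD49f, so these factors cannot be told apart. The labels do not give the sex of the embryos. Any difference in sex between PGC colonies and the groups from testes cannot be told apart either. The limits of 2 arrays a group apply to all values above.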

How the data were processed

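The authors deposited a linear intensity per probe for each of 6 arrays, from amplified RNA carrying Cy5, per the labels. How the scan was read, background removed and scale set: not given in the sources used here. Values below 0 occurred on some arrays, as after background subtraction, and median deposited intensity was 393 to 606. Intensities were corrected with normexp (offset 50), put on the log2 scale and quantile normalized (R 4.3.3, limma 3.58.1). Probes took their gene symbol from the series' probe table (21876 with 1 symbol, 4547 with none, 0 with several), and the probe with the highest mean stood for its gene. A gene was tested where at least 2 of 6 arrays reached the 30th percentile of their array. All 6 arrays entered 1 limma fit (lmFit, eBayes, two-sided, 3 residual degrees of freedom, no block), with p-values adjusted by Benjamini-Hochberg over all 15459 genes and called under 0.05. Other probes of a gene come from a fit over all 26423 probes. With no detection calls, a group under the filter level on both arrays gives only a bound: folds are then at least the brighter mean over that level. The scripts were tested on simulated data.

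Values are given as normalized log2 intensity, differences as log2 with SE, with n = 2 arrays a group, a number that limits how precise they can be. Genes are named by rule: all listed genes, each called gene with a difference of at least 1 log2 by array, and from related lists the 2 largest rises and 2 largest falls past the threshold in each comparison, together with Rest. The members and lists were chosen with earlier results of these data known. Promoter sequences are from RefSeq (GRCm38.p6); the arrays name no build. Normalization, background, filter, probe, sample and replicate alternatives were tried.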

Additional observations from a re-analysis of the deposited data

How the results depend on the processing

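Of 61 calls of listed genes in the 3 comparisons, 42 held under all of the 14 or 15 alternatives that gave a value and 19 were lost in at least 1, of which 8 only where 1 array was left out; 0 changed direction. Where either fit made a call, leaving out normalization between arrays turned Nefh in PGC colonies against sorted cells to 0.35, Dpysl4 in GSC colonies against sorted cells to 0.12 and Ddc in PGC colonies against sorted cells to 0.03; the cause was not tested. Uncalled differences of listed genes also changed sign under that setting: in GSC colonies against sorted cells Dcx to 0.23, L1cam to 0.23, Elavl3 to 0.07, Syt1 to 0.32 and Vgf to 0.44, and in PGC colonies against sorted cells Map2 to 0.31. With 1 array left out, in which case the lone array is assumed to vary like the other groups, PGC against GSC colonies gave 12 to 15 genes higher and 0 to 1 lower. The replicate block gave 15 higher and 1 lower there, 13 and 6 for GSC colonies against sorted cells, and 19 and 3 for PGC colonies against sorted cells. Deviations of same-numbered arrays correlated at -0.342, -0.179 and 0.326 between groups. With 1 difference per group, these values cannot decide whether replicate numbers pair the arrays. Intensity near the filter level limits Nefl, Chgb, Hand2, S100b, Crmp1, Mapt, Stmn4 and Nefm, and spread between arrays limits Syt1, Th, Dbh and Snap25.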

Other observations

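Neurotrophic ligands were called more often between colonies and sorted cells than between the colonies, as were all tested genes. Of 8 tested, 4 were higher and 4 lower in either kind of colony than in sorted cells. Without the ligand that reached the filter level in 1 group only, 3 were lower. Without normalization between arrays the split was 4 and 1. Of all tested genes, 22.5% were higher and 24.5% lower in GSC colonies, and 22.8% and 23.2% in PGC colonies. Without normalization these shares were 52.9% and 11.2%, and 49% and 11.9%. Between the colonies Gdnf alone was called (limma, adjusted p under 0.05), where 15.1% of all tested genes were. Nrg1, the growth factor that Schwann cells need, rose by 2.96 ± 0.17 in GSC and by 2.84 ± 0.17 in PGC colonies (SE, n = 2 arrays; adjusted p = 3e-05 and 3.9e-05). Bdnf, a neurotrophin, rose by 1.29 ± 0.12 and 1.68 ± 0.12 (adjusted p = 0.00023 and 7.7e-05). Gdnf, which Sertoli cells make for spermatogonial stem cells and which also supports neurons, was highest in sorted cells at 13.18 and 13.32; it fell by 1.73 ± 0.11 in GSC colonies, by 2.50 ± 0.11 in PGC colonies (adjusted p = 5.9e-05 and 1.6e-05) and by 0.77 ± 0.11 from GSC to PGC colonies (adjusted p = 0.0073). Cntf, a ciliary neurotrophic factor, fell by 0.75 ± 0.15 in GSC colonies (adjusted p = 0.0073), and Ntf5, a neurotrophin, by 0.72 ± 0.14 in PGC colonies (adjusted p = 0.0059).

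A list around the repressor REST held its cofactors, splicing repressors and Srrm4, a splicing activator that counters REST. Rest, the repressor that binds the RE1 element, was at 8.25 and 8.34 in PGC colonies. It was at 8.24 and 7.99 in GSC colonies and 8.58 and 8.55 in sorted cells. PGC and GSC colonies differed by 0.18 ± 0.12 (limma adjusted p = 0.39). GSC colonies were called lower than sorted cells, by 0.45 ± 0.12 (adjusted p = 0.026). PGC colonies lay 0.27 ± 0.12 below sorted cells, which was not called (adjusted p = 0.13). Without normalization between arrays PGC colonies lay 0.13 above them. Of 13 tested genes of this list, 1 was called between the colonies, where 15.1% of all tested genes were: Srrm4 fell by 0.67 ± 0.14 from GSC to PGC colonies (adjusted p = 0.025). GSC colonies against sorted cells gave 2 higher and 5 lower, or 5 and 1 without normalization between arrays, beside 22.5% and 24.5%, or 52.9% and 11.2%, of all tested genes. Ptbp2, a neuronal splicing repressor, fell by 1.06 ± 0.12 in GSC colonies and by 0.70 ± 0.12 in PGC colonies (adjusted p = 0.00063 and 0.0041). Ptbp1, its relative in other cells, fell by 0.89 ± 0.11 in GSC colonies (adjusted p = 0.00074), with deposited intensities of 35400 and 34100 there against 38400 and 37300 in sorted cells. Rcor2, a REST cofactor, rose by 0.42 ± 0.12 in GSC colonies and by 0.64 ± 0.12 in PGC colonies (adjusted p = 0.03 and 0.0056). Hes1, a Notch target that holds back neuronal differentiation, rose by 1.82 ± 0.17 in GSC and by 2.11 ± 0.17 in PGC colonies (adjusted p = 0.00023 and 0.00013).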
